A study of Mus musculus with 15 samples.

Results

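The genes described here are 8 imprinted genes of fetal growth, Igf2, H19, Dlk1, Meg3, Grb10, Peg3, Cdkn1c and Plagl1, taken by symbol from a table of read counts for 23337 genes of mouse cardiomyocytes. All 8 were in the table, and 6 had enough counts to be tested, out of 11814 genes tested in all. The libraries came from cardiomyocytes of 4-week-old mice that carry Cas9 and GFP at the Rosa locus and had been injected on postnatal day 1 with a vector made from adeno-associated virus (AAV). The vector was AAV-ATF4-2A-GFP in 5 libraries, AAV-DDIT3-2A-GFP in 5 libraries and AAV-GFP in the 5 control libraries, called ATF4, DDIT3 and GFP below. Cells were isolated by Langendorff perfusion of the heart and purified by FACS, a sort of single cells by fluorescence. The Rosa allele with Cas9 and GFP is shared by all 3 groups, and the promoter that drives the vector genes is not given in the sources used here. ATF4 acts in the integrated stress response, where it drives amino acid metabolism genes, and DDIT3, also called CHOP, is induced when the endoplasmic reticulum is stressed.

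An imprinted gene is transcribed mainly from the copy inherited from one given parent, because methylation of CpG dinucleotides laid down in egg or sperm marks the copies differently. Many such genes steer growth before birth, and in mice transcripts of several of them decline in heart, liver and other organs in the weeks after birth. Igf2 encodes a growth factor and is expressed from the paternal copy. H19, a long noncoding RNA, is expressed from the maternal copy of the same domain. Grb10 encodes an adaptor protein that dampens signalling of the insulin and IGF1 receptors. Cdkn1c encodes the cyclin-dependent kinase inhibitor p57. Plagl1, also called Zac1, and Peg3 encode zinc finger proteins, and Plagl1 is known in mice as a regulator of other imprinted genes. Dlk1 encodes a membrane protein related to Notch ligands, and Meg3 is the noncoding RNA of the same domain. Counts per gene do not tell the parental copies apart, so that imprinting itself was not measured here.

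Total counts were 6217744 to 7514376 per library in ATF4, 7268663 to 8317249 in DDIT3 and 6680988 to 7963333 in GFP. The vector genes were high where their vector was given. Atf4 stood at 400 ± 79.5 CPM (counts scaled to library size and composition) in ATF4 and 71.1 ± 12.2 CPM in GFP, and Ddit3 at 844 ± 180 CPM in DDIT3 and 15.6 ± 1.28 CPM in GFP (SD, n = 5 each), and the counts do not separate vector from endogenous transcripts. Ddit3 was also higher in ATF4 than in GFP, at 29.5 ± 7.62 CPM (log2 fold change 0.91 ± 0.17, SE, edgeR adjusted p = 6.1e-04). Atf4 stood at 66.5 ± 22.9 CPM in DDIT3 and was not called against GFP (edgeR adjusted p = 0.946). A set of 12 cardiomyocyte markers summed to 114705 to 126969 CPM in ATF4, 144792 to 162134 CPM in DDIT3 and 143817 to 185044 CPM in GFP. ATF4 replicate 2 and DDIT3 replicate 2 stood apart from the other libraries on the second principal component (11.4% of the variance). Both are among the 4 libraries with 99 or more Xist counts and no more than 3 counts of Y-linked transcripts, the others being GFP replicates 4 and 5. SMART-Seq2 is the name on 14 labels, and SMART-Seq3 on that of GFP replicate 5.

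Grb10, Plagl1 and Igf2 are the members that passed the test of ATF4 against GFP. The bases before their starts are shown because imprints are written as methylation of CpG dinucleotides and because the vectors carry transcription factors. Whether these windows lie in the regions that carry the imprints was not examined. Each line gives 250 bases 5′ of a RefSeq start (GRCm38.p6, the same build as mm10) on the strand of the gene, 5′ to 3′, with CpG dinucleotides in capitals. The Grb10 windows lie at chr11:12037421-12037670 and chr11:12027972-12028221 (minus strand), the Plagl1 window at chr10:13090582-13090831 (plus strand) and the Igf2 window at chr7:142658805-142659054 (minus strand).
Grb10, upstream start: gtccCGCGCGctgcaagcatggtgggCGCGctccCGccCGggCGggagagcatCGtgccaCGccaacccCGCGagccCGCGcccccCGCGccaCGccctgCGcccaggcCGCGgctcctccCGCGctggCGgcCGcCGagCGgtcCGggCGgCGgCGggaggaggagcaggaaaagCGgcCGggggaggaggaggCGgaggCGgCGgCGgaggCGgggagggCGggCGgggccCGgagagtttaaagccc
Grb10, inner start: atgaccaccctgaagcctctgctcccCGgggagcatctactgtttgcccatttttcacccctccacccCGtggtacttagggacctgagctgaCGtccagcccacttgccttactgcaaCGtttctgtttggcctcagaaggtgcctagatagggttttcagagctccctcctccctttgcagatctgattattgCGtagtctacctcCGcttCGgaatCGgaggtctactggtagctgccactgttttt
Plagl1: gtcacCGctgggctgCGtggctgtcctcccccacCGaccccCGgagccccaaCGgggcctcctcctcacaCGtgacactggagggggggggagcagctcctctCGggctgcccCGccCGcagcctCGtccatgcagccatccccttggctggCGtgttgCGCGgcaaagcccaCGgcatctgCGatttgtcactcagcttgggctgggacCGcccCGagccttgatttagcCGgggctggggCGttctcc
Igf2, the start with the most CpG of 4: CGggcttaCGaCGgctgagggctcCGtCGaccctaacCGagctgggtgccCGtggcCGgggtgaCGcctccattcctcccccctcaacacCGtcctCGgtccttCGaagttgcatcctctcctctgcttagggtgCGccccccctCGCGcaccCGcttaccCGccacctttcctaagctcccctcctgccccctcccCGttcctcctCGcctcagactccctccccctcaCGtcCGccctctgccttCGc
These windows held 40, 8, 19 and 22 CpG dinucleotides, and the other 3 Igf2 windows, not shown, held 1, 10 and 6. The median over 32851 promoters in the table was 6. The first Grb10 window had a G and C content of 81.2%. The C/EBP-ATF element TGATGNAA, the kind of site bound by ATF4 and DDIT3 with C/EBP partners, was searched on both strands from 250 bases before to 50 bases after each start. It occurred in none of 11 promoters of the 6 members with an entry, and in 3.97% of all promoters. The letters TGACGT, the core of the cyclic AMP response element, were chosen for a search after the sequences had been seen. They occurred in the inner Grb10 promoter and in 1 promoter each of Peg3 and Meg3, against 7.51% of all promoters. The letters in these windows say nothing about binding or about methylation.

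The members spanned a wide range of levels, and one of them was far from silent. Levels between genes are compared per kb of the deposited gene length. Grb10 had 87.8 ± 15.4 CPM per kb in ATF4, 35.8 ± 6.25 in DDIT3 and 38.0 ± 6.87 in GFP (SD, n = 5 each), and its level in GFP lay above that of 85.2% of the genes tested. Cdkn1c came next in GFP at 5.98 ± 2.55 CPM per kb, above 44.4% of the genes tested. Peg3 at 2.74 ± 0.878, Igf2 at 2.37 ± 0.655 and Plagl1 at 1.93 ± 0.233 CPM per kb in GFP followed, with differences between these neighbours smaller than the spread between libraries. H19 lay at 0.369 ± 0.225 CPM per kb, above 3.43% of the genes tested, Meg3 at 0.0538 ± 0.0376, and Dlk1 had no count in any GFP library. In ATF4 the order of Plagl1, Igf2 and Peg3 was 4.11 ± 1.18, 3.58 ± 0.307 and 2.62 ± 1.43 CPM per kb, again within the spread of the libraries. In DDIT3 Peg3, Igf2 and Plagl1 stood at 2.26 ± 0.489, 1.89 ± 0.444 and 1.86 ± 0.560 CPM per kb, likewise within their spread. Grb10 thus does not have the silence after birth that was the reason to list these genes together, whereas Dlk1, Meg3 and H19 had few or no counts.

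**Figure D1:**
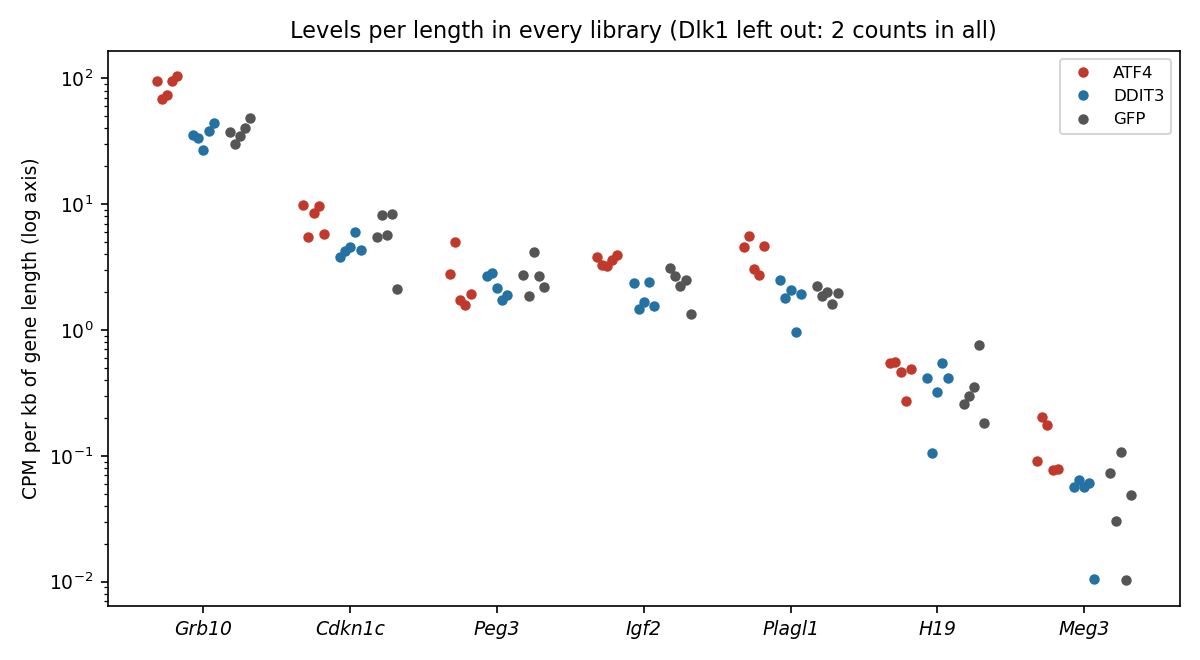
Level per kb of gene length (CPM per kb, log axis) of 7 members in each of 15 libraries, 5 per vector group, ordered by the GFP mean; Dlk1, with 2 counts in all, is left out. Grb10 lies highest in every library, and H19 and Meg3 lie lowest.

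Grb10, Plagl1 and Igf2 were higher in ATF4 than in GFP. The rise was 2.31-fold for Grb10, 2.13-fold for Plagl1 and 1.503-fold for Igf2, and for each the 5 ATF4 libraries all lay above the 5 GFP libraries. Among the 6 members tested, 3 rose, none fell and the other 3 missed the threshold (edgeR's quasi-likelihood test with Benjamini-Hochberg adjustment over all genes, threshold 0.05). Over all genes tested, 32.2% passed in this comparison, made up of 16.5% higher and 15.6% lower. The groups did not overlap in 21.4% of all genes (11.7% with ATF4 higher), and in 3 of the 6 members. The median log2 fold change of the 6 members was 0.49, beside 0.02 over all genes. The members were chosen with earlier results of these data known, so that such counts and medians are no test of the set. In DDIT3 against GFP 0 of the 6 members passed edgeR's test, 0 had an unadjusted p below 0.05 and DESeq2 also called 0, where 0.863% of all genes passed (102 genes, or 322 with the replicate number as a block) and 9.71% had an unadjusted p below 0.05. The DDIT3 and GFP libraries overlapped for each of the 6 members, where 2.86% of all genes did not overlap. ATF4 against DDIT3 called 4 members, all higher in ATF4, where 33.8% of all genes passed (17.8% higher and 16.0% lower). The groups did not overlap in 3 of the 6 members and in 22.6% of all genes (12.3% with ATF4 higher), and the median of the 6 was 0.85, beside 0.00 over all genes. The comparisons share libraries, ATF4 in 2 of them and GFP in 2 of them.

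**Figure D2:**
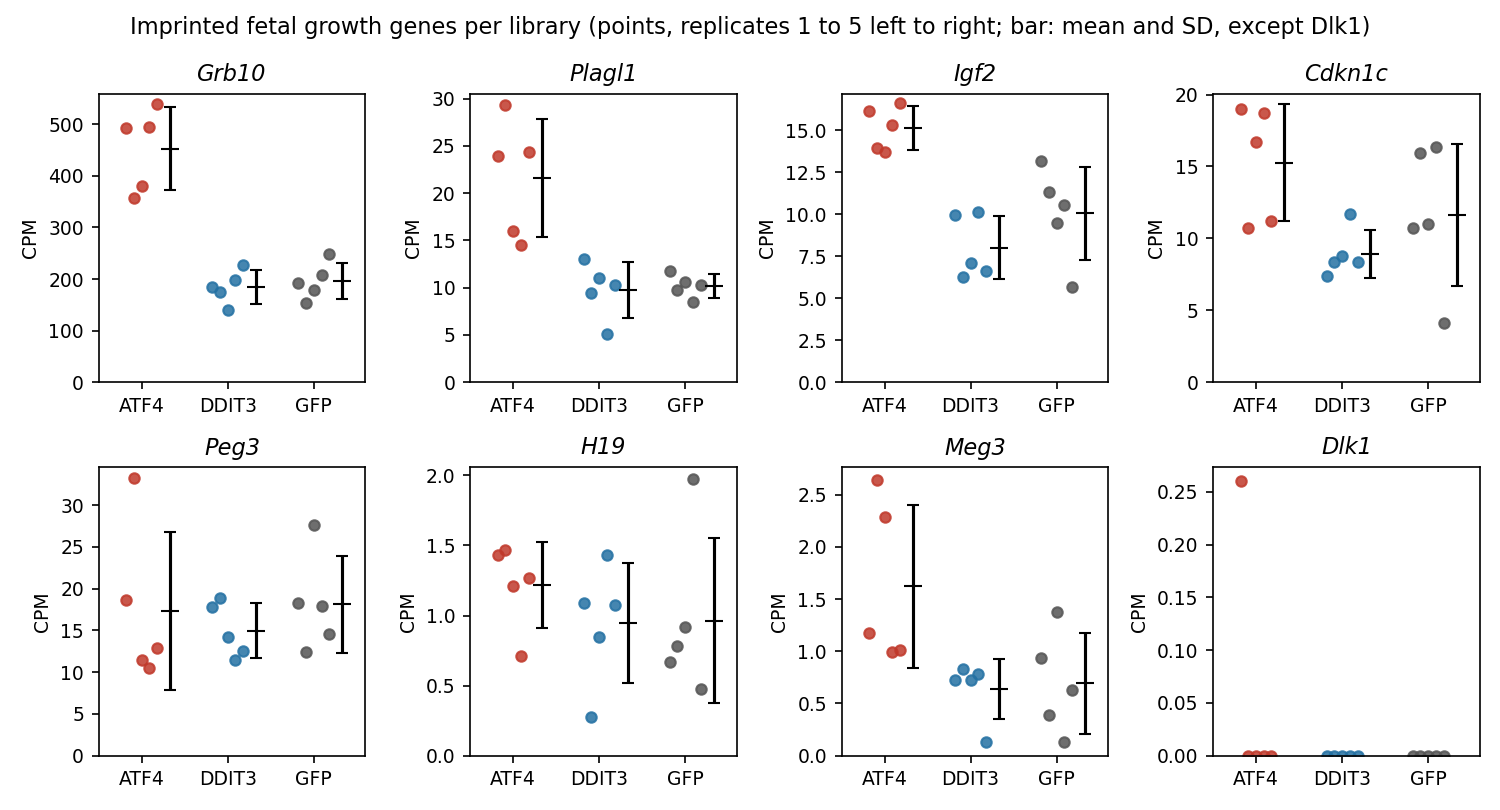
CPM of each member (linear axis from 0, own scale per panel) in 5 libraries each of ATF4, DDIT3 and GFP; points are libraries and bars the mean and SD. The ATF4 libraries lie above all others for Grb10, Plagl1 and Igf2, while the groups overlap for Cdkn1c, Peg3 and H19.

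Growth restraint comes first by role. Grb10 (chromosome 11, 11930508 to 12038683, mm10) had 492, 357, 381, 496 and 540 CPM in ATF4 replicates 1 to 5. It had 184, 174, 139, 197 and 227 CPM in DDIT3 and 192, 154, 178, 208 and 249 CPM in GFP. Every ATF4 library stood above every library of the other groups, and the DDIT3 and GFP libraries overlapped. The log2 fold change of ATF4 over GFP was 1.21 ± 0.15 (SE, edgeR adjusted p = 8.8e-06), larger than that of 95.3% of the genes tested. ATF4 over DDIT3 gave 1.30 ± 0.15 (edgeR adjusted p = 3.8e-06). DDIT3 over GFP gave -0.09 ± 0.15 with a 95% interval of -0.41 to 0.23 (edgeR adjusted p = 0.933), which bounds the size of any change. Cell type markers moved beside these values, as described below.

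Cdkn1c (chromosome 7, 143458339 to 143461050), also a growth restrainer, had 19.01, 10.7, 16.7, 18.7 and 11.2 CPM in ATF4. It had 7.38, 8.32, 8.81, 11.7 and 8.35 CPM in DDIT3 and 10.7, 15.9, 11.0, 16.3 and 4.11 CPM in GFP. The groups overlapped, and GFP replicate 5 was the lowest library of all. ATF4 over GFP was 0.39 ± 0.27 on the log2 scale (95% interval -0.18 to 0.95, edgeR adjusted p = 0.295) and DDIT3 over GFP -0.39 ± 0.28 (-0.97 to 0.19, edgeR adjusted p = 0.735). Without GFP replicate 5, the library labelled SMART-Seq3, these were 0.17 ± 0.21 (edgeR adjusted p = 0.581) and -0.60 ± 0.21 (edgeR adjusted p = 0.280). ATF4 over DDIT3 was 0.78 ± 0.27 (edgeR adjusted p = 0.0365). This call was lost without any of 7 libraries, ATF4 replicates 1, 3 and 4 and DDIT3 replicates 1, 2, 3 and 5, with edgeR adjusted p between 0.0637 and 0.0921. An antisense transcript annotated over Cdkn1c shares 625 exon bases with it, and without strand in the library kit their reads cannot be told apart.

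Igf2 (chromosome 7, 142650766 to 142666816), the growth factor, had 16.2, 13.9, 13.7, 15.3 and 16.6 CPM in ATF4. It had 9.93, 6.24, 7.12, 10.1 and 6.60 CPM in DDIT3 and 13.1, 11.3, 9.50, 10.5 and 5.69 CPM in GFP. The lowest ATF4 library, at 13.7 CPM, was just above the highest GFP library, at 13.1 CPM. ATF4 over GFP was 0.59 ± 0.19 on the log2 scale (edgeR adjusted p = 0.0267), and ATF4 over DDIT3 was 0.92 ± 0.20 (edgeR adjusted p = 0.00149). DDIT3 over GFP was -0.33 ± 0.20 (95% interval -0.75 to 0.09, edgeR adjusted p = 0.662). The call against GFP was lost without any of 4 libraries. The value was 0.56 ± 0.21 (edgeR adjusted p = 0.0569) without ATF4 replicate 1, 0.55 ± 0.21 (0.0579) without ATF4 replicate 5, 0.57 ± 0.21 (0.0566) without GFP replicate 3 and 0.44 ± 0.17 (0.0608) without GFP replicate 5. A protein-coding transcript annotated on the same strand shares 3596 exon bases with Igf2 and has no row of its own, so that its reads cannot be told from those of Igf2.

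Among the zinc finger genes, Plagl1 (chromosome 10, 13060504 to 13131694) had 24.0, 29.3, 16.0, 14.5 and 24.4 CPM in ATF4. It had 13.1, 9.43, 11.0, 5.07 and 10.2 CPM in DDIT3 and 11.8, 9.77, 10.6, 8.43 and 10.3 CPM in GFP. ATF4 replicates 3 and 4 were the lowest of their group and replicate 2 the highest, and no ATF4 library overlapped the other groups. ATF4 over GFP was 1.09 ± 0.22 on the log2 scale (edgeR adjusted p = 0.00111) and 1.14 ± 0.22 over DDIT3 (edgeR adjusted p = 6.8e-04). Without ATF4 replicate 2, the highest library, and DDIT3 replicate 2 the values were 0.95 ± 0.23 over GFP (edgeR adjusted p = 0.00423) and 0.997 ± 0.24 over DDIT3 (edgeR adjusted p = 0.00511). DDIT3 over GFP was -0.06 ± 0.23 (95% interval -0.54 to 0.42, edgeR adjusted p = 0.974).

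Peg3 (chromosome 7, 6703892 to 6730431), the other zinc finger gene, had 18.6, 33.3, 11.4, 10.5 and 12.8 CPM in ATF4. It had 17.8, 18.9, 14.2, 11.5 and 12.5 CPM in DDIT3 and 18.2, 12.4, 27.6, 17.9 and 14.5 CPM in GFP. The groups overlapped throughout, and ATF4 replicate 2 was the highest library of all. ATF4 over GFP was -0.07 ± 0.29 on the log2 scale (95% interval -0.67 to 0.54, edgeR adjusted p = 0.888), and -0.44 ± 0.23 without ATF4 replicate 2 and DDIT3 replicate 2 (edgeR adjusted p = 0.151). DDIT3 over GFP was -0.27 ± 0.29 (-0.88 to 0.33, edgeR adjusted p = 0.848) and ATF4 over DDIT3 0.21 ± 0.29 (-0.40 to 0.81, edgeR adjusted p = 0.618). The sign of ATF4 over DDIT3 turned without ATF4 replicate 2 (-0.17 ± 0.23, edgeR adjusted p = 0.623), and that of ATF4 over GFP turned without any one of ATF4 replicates 3, 4 and 5 and GFP replicate 3 (0.05, 0.07, 0.02 and 0.13), so that no direction is given for Peg3.

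**Figure D3:**
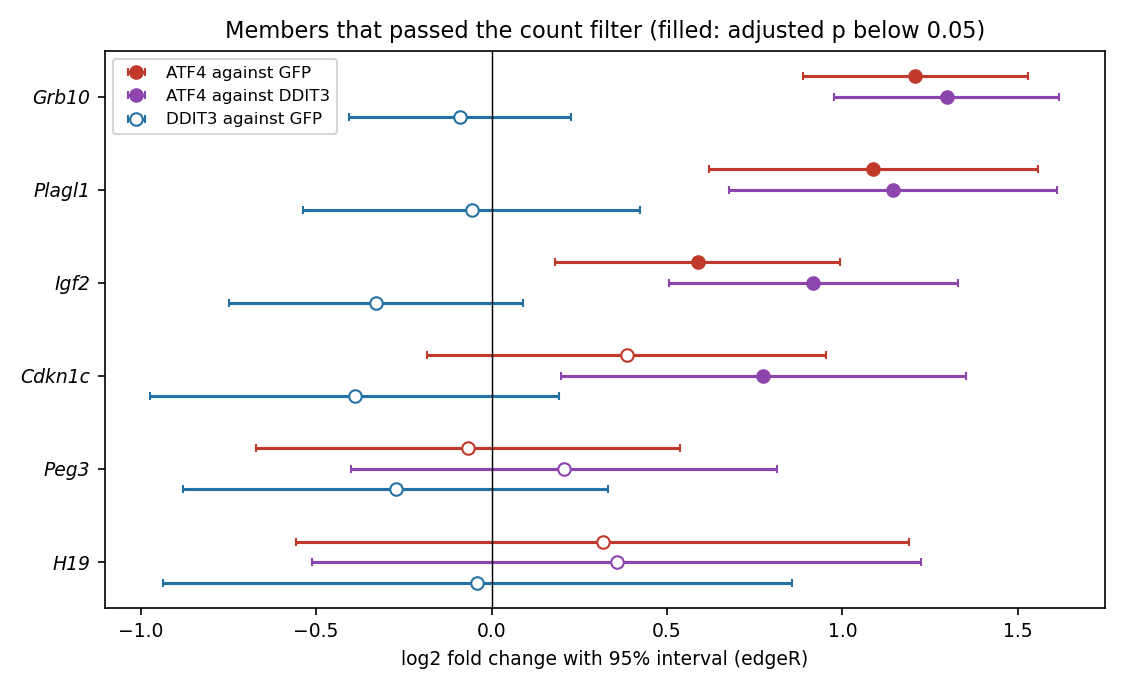
Log2 fold changes (x axis) with 95% intervals of the 6 members tested, for ATF4 against GFP, ATF4 against DDIT3 and DDIT3 against GFP; filled points have an edgeR adjusted p below 0.05. Grb10, Plagl1 and Igf2 are called in both comparisons with ATF4, Cdkn1c in ATF4 against DDIT3, and no member in DDIT3 against GFP.

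The noncoding RNAs were counted in small numbers. H19 (chromosome 7, 142575529 to 142578143), which lies 72.6 kb from Igf2, had 11, 10, 9, 5 and 10 counts in ATF4, 9, 2, 7, 11 and 8 in DDIT3 and 5, 6, 6, 15 and 3 in GFP. The groups overlapped, with the highest count in GFP replicate 4. ATF4 over GFP was 0.32 ± 0.42 on the log2 scale, with a 95% interval of -0.56 to 1.19 (edgeR adjusted p = 0.593). DDIT3 over GFP was -0.04 ± 0.43, with an interval of -0.93 to 0.85 (edgeR adjusted p = 0.995), and ATF4 over DDIT3 was 0.36 ± 0.41 (edgeR adjusted p = 0.543). Without DDIT3 replicate 2, which had 2 counts, DDIT3 over GFP was 0.18 ± 0.40 (edgeR adjusted p = 0.963) and ATF4 over DDIT3 0.13 ± 0.39 (edgeR adjusted p = 0.827). ATF4 over GFP was 0.16 ± 0.43 without GFP replicate 5 (edgeR adjusted p = 0.824) and 0.20 ± 0.45 without GFP replicate 1 (edgeR adjusted p = 0.764). At this depth a change the size of that of Igf2 was not detectable in H19, since the interval holds both 0 and 0.59.

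Meg3 (chromosome 12, 109541001 to 109571726) had 9, 18, 17, 7 and 8 counts in ATF4, 6, 6, 6, 6 and 1 in DDIT3 and 7, 3, 9, 1 and 4 in GFP. The sums were 59, 25 and 24 counts. In CPM, ATF4 replicates 2 and 3 stood above all libraries of the other groups, all ATF4 libraries stood above DDIT3, and ATF4 overlapped GFP. Meg3 did not pass the filter on low counts. Without that filter ATF4 over GFP was 1.21 ± 0.50 on the log2 scale (edgeR adjusted p = 0.093) and ATF4 over DDIT3 was 1.30 ± 0.50 (edgeR adjusted p = 0.0639). DESeq2 gave adjusted p = 0.0741 and 0.0495 for the same comparisons. A lincRNA annotated on the other strand shares 1228 exon bases with Meg3. Dlk1 (chromosome 12, 109452823 to 109463336), the protein-coding partner of Meg3 in its domain, had 2 counts in ATF4 replicate 1 and 0 in the other 14 libraries. No count in 5 libraries allows a level of up to 0.0772 CPM in DDIT3 and 0.0843 CPM in GFP (3 counts over the group, counting error only).

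Among markers of other cell types, the endothelial ones were most often higher in ATF4. Over all genes tested, edgeR called 32.2% in ATF4 against GFP (16.5% higher and 15.6% lower). In ATF4 against DDIT3 it called 33.8% (17.8% higher and 16.0% lower). For DDIT3 against GFP it called 0.863%, and 9.71% had an unadjusted p below 0.05. Of 14 endothelial markers, 12 rose in ATF4 against GFP and 0 fell, and their summed level was 1395 to 2033 CPM in ATF4, 606 to 1050 CPM in DDIT3 and 608 to 1236 CPM in GFP, with none of them at 0 in any group. Of 10 pericyte and smooth muscle markers tested 5 rose and 0 fell, and the 11 in the table summed to 748 to 1437 CPM in ATF4, 721 to 1437 CPM in DDIT3 and 888 to 1373 CPM in GFP. Of 12 fibroblast markers tested 1 rose and 1 fell, with sums of 491 to 1089 CPM in ATF4, 342 to 652 CPM in DDIT3 and 430 to 938 CPM in GFP. Of 12 cardiomyocyte markers 8 fell and 0 rose. In ATF4 against DDIT3, where Cdkn1c was also called, 13 of 14 endothelial, 6 of 10 pericyte and smooth muscle and 5 of 12 fibroblast markers rose, with median log2 fold changes of 1.11, 0.84 and 0.78, while 1 fibroblast and 7 cardiomyocyte markers fell. In DDIT3 against GFP edgeR called 0 of the 14 endothelial markers, with 5 at an unadjusted p below 0.05 and a median of -0.28, and DESeq2 called 0. The fibroblast median there was -0.57, with 1 marker that fell. Leukocyte markers (5 tested) had 0 called by edgeR, 0 with an unadjusted p below 0.05 and 0 by DESeq2, and summed to at most 22 CPM in ATF4, 18.9 CPM in DDIT3 and 21.6 CPM in GFP. Of 4 epicardial markers tested 1 rose and 0 fell, with sums of 8.52 to 19 CPM in ATF4, 6.33 to 24.6 CPM in DDIT3 and 5.53 to 17.8 CPM in GFP. Of 8 Schwann cell and neuron markers 2 were tested, 1 of which rose and 1 fell, with sums of 17.4 to 37.2 CPM in ATF4, 4.45 to 6.66 CPM in DDIT3 and 4.58 to 6.52 CPM in GFP. Of the erythroid markers Hba-a1 and Hba-a2 were at 0 in every group, and none was tested. In such bulk libraries fewer cells of a type and less RNA per cell cannot be told apart, and the part of these cells in the rises of Grb10, Plagl1, Igf2 and Cdkn1c was not tested.

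Within the groups, the members were set against these markers. Each library's deviation from its group mean was compared over 15 libraries, in 39 relations of 6 members with 4 marker sums and with each other (two-sided permutation within groups, 100000 resamples, Benjamini-Hochberg adjusted over the 39). The permutation treats the 15 deviations as independent, although those of same-numbered libraries correlated across genes in 14 of 15 pairs at over 0.1 and up to 0.511. Igf2 and the endothelial sum gave a Pearson r of 0.843 (permutation p = 0.00155, adjusted 0.0604) and a Spearman rho of 0.804 (permutation p = 0.00151, adjusted 0.0589). Without the 2 libraries farthest from the median of that sum r was 0.677. Igf2 and the fibroblast sum gave r = 0.690 and rho = 0.554 (permutation p = 0.00454 and 0.0298, adjusted 0.0885 and 0.219), and r = 0.559 without the 2 farthest libraries. GFP replicate 5 had the lowest Igf2, the lowest Cdkn1c and, at 608 CPM, the lowest endothelial sum of its group. Cdkn1c gave r = 0.685 and rho = 0.586 with the endothelial sum (permutation p = 0.0292 and 0.0337, adjusted 0.19 and 0.219), and 0.406 without the 2 farthest libraries. With the fibroblast sum Cdkn1c gave r = 0.681 and rho = 0.636 (permutation p = 0.00813 and 0.0207, adjusted 0.106 and 0.219), and r = 0.680 without the 2 farthest libraries. Grb10 and the endothelial sum gave r = -0.347 and rho = -0.236 (permutation p = 0.242 and 0.436, adjusted 0.606 and 0.824), and Plagl1 r = -0.084 and rho = -0.043 (permutation p = 0.752 and 0.883, adjusted 0.862 and 0.975). Without the 2 farthest libraries r was 0.165 for Grb10, with the sign turned, and -0.048 for Plagl1. None of the 39 relations passed the adjustment.

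**Figure D4:**
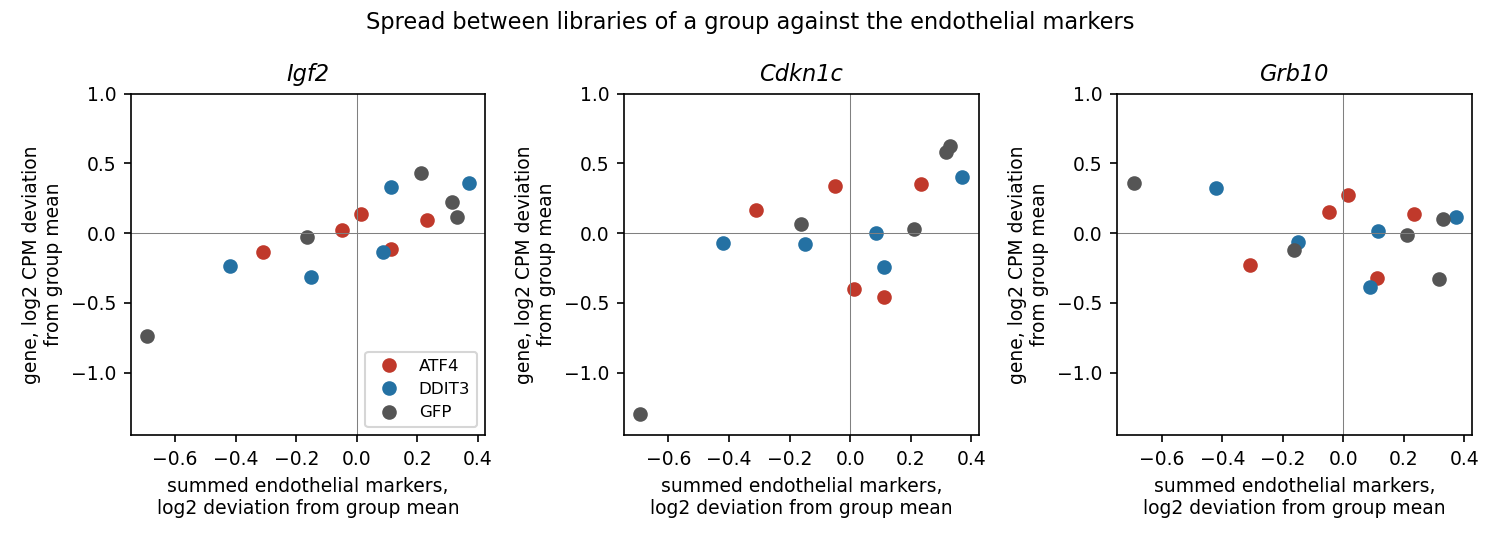
Deviation of each library from its group mean, in log2 CPM, for Igf2, Cdkn1c and Grb10 (y axis) against the log2 summed CPM of 14 endothelial markers (x axis), with 5 libraries for each of ATF4, DDIT3 and GFP. Igf2 and the markers gave r = 0.843, which did not pass the adjustment, and GFP replicate 5 is the point at the far left.

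Among the members themselves, Igf2 and Cdkn1c gave r = 0.634 and rho = 0.429 (permutation p = 0.0689 and 0.125, adjusted 0.384 and 0.609), and r = 0.256 without the 2 farthest libraries. Peg3 and Plagl1 gave r = 0.610 and rho = 0.618 (permutation p = 0.0176 and 0.0262, adjusted 0.146 and 0.219). Cdkn1c and Plagl1 gave r = -0.464 and rho = -0.646 (permutation p = 0.0187 and 0.00999, adjusted 0.146 and 0.195). Igf2 and H19, which share a domain, gave r = 0.471 and rho = 0.396 (permutation p = 0.141 and 0.207, adjusted 0.458 and 0.622). These values rest on few counts for H19. As a description with no test, the genes nearest to Grb10 by these deviations over 15 libraries were Cacna2d1, a calcium channel subunit (Pearson r = 0.969, Spearman rho = 0.968), Zfp106 (0.955 and 0.986) and Aplp2 (0.949 and 0.904). Those nearest to Igf2 were Apba1 (0.915 and 0.875), Pea15a (0.908 and 0.921) and Soat1 (0.906 and 0.950), and those nearest to Plagl1 were Zfp661, Gm1337 and Mcmbp (Pearson r of 0.910, 0.900 and 0.872). Those nearest to Cdkn1c were Tmem88, Dpm3 and Car7 (0.932, 0.906 and 0.904), and to Peg3 2310021P13Rik, Trrap and A630072M18Rik (0.947, 0.916 and 0.892). H19, with few counts, lay nearest to Wt1, Nes and Bag5 (0.843, 0.799 and 0.799). Each of these genes was picked for the highest r among all genes tested, so that some of the height of r comes from the picking. Apba1 and Soat1 also had few counts, with means of 1.79 and 1.63 CPM over the 15 libraries.

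Other genes listed as imprinted did not share one direction. Whether each of them is imprinted in heart cells, or in the mouse at all, was not examined. Of 66 listed, 63 were in the table and 37 were tested, and in ATF4 against GFP 3 rose, 7 fell and 27 did not pass edgeR's test, beside 32.2% of all genes called. Their median log2 fold change was -0.12, and with scaling by total counts 4 rose and 3 fell. Nap1l4, a histone chaperone gene, fell to 225 ± 23.8 CPM in ATF4, against 326 ± 16.9 CPM in GFP (log2 fold change -0.54 ± 0.09, edgeR adjusted p = 2.4e-04). Asb4 fell to 6.99 ± 1.57 CPM in ATF4, against 14.3 ± 2.89 CPM in GFP (-1.03 ± 0.23, edgeR adjusted p = 0.00234), and Blcap to 63.1 ± 6.08 CPM in ATF4, against 81.7 ± 3.07 CPM in GFP (-0.37 ± 0.09, edgeR adjusted p = 0.00313). Dlx5, a homeobox gene, rose to 5.005 ± 2.30 CPM in ATF4, against 0.0268 ± 0.0600 CPM in GFP, and had no count in DDIT3 (edgeR adjusted p = 3.5e-06 against GFP).

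In ATF4 against DDIT3, where 33.8% of all genes were called, 5 of these 37 genes rose and 10 fell, or 5 and 6 with scaling by total counts. Slc38a4, an amino acid transporter, fell to 36.0 ± 8.14 CPM in ATF4, against 67.2 ± 9.09 CPM in DDIT3 (log2 fold change -0.90 ± 0.14, edgeR adjusted p = 1.1e-04). In DDIT3 against GFP edgeR called 0 of them, with 7 of the 37 at an unadjusted p below 0.05, beside 9.71% of all genes. DESeq2 called 1, Cobl, at a log2 fold change of 0.48 (DESeq2 adjusted p = 0.0422). Cobl was named after its value had been seen.

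The IGF and insulin signalling list covers the pathway that Igf2 feeds and Grb10 dampens. Of 48 listed, 40 were tested, and 7 rose, 8 fell and 25 did not pass edgeR's test against GFP (9 rose and 4 fell with scaling by total counts), with a median log2 fold change of 0.03. This lies near the background of 32.2% of all genes called (16.5% higher and 15.6% lower). Stc2, a secreted inhibitor of the protease that frees IGF from its binding proteins, rose to 24.5 ± 2.10 CPM in ATF4, against 7.65 ± 1.16 CPM in GFP (1.68 ± 0.15, edgeR adjusted p = 9.0e-08). Eif4ebp1, an inhibitor of translation initiation downstream of mTOR, rose to 267 ± 32.4 CPM in ATF4, against 100.1 ± 28.9 CPM in GFP (1.41 ± 0.18, edgeR adjusted p = 9.8e-06). The adaptor gene Shc1 rose to 46.2 ± 4.73 CPM in ATF4, against 25.2 ± 1.92 CPM in GFP (0.88 ± 0.10, edgeR adjusted p = 4.3e-06). Grb14, the adaptor closest in family to Grb10, fell to 249 ± 32.7 CPM in ATF4, against 371 ± 27.0 CPM in GFP (-0.58 ± 0.10, edgeR adjusted p = 3.0e-04). Thus 2 adaptors of the same family differed in direction, with Grb10 higher and Grb14 lower in ATF4.

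The ligand and receptor genes were added to these after their values had been seen. Igf1 fell to 4.73 ± 1.32 CPM in ATF4, against 8.35 ± 1.34 CPM in GFP (-0.81 ± 0.22, edgeR adjusted p = 0.00882). Igf1r, the receptor that carries the growth signal of both ligands, rose to 38.8 ± 18.9 CPM in ATF4, against 22.3 ± 5.18 CPM in GFP, with groups that overlapped (0.80 ± 0.29, edgeR adjusted p = 0.0425). Igf2r, an imprinted receptor that clears IGF2, stood at 149.9 ± 27.8 CPM in ATF4 and 200.4 ± 89.6 CPM in GFP (-0.42 ± 0.23, edgeR adjusted p = 0.183), and Insr at 97.4 ± 44.1 CPM in ATF4 and 79.9 ± 13.3 CPM in GFP (0.28 ± 0.22, edgeR adjusted p = 0.335). Against DDIT3, 9 of the 40 genes rose and 5 fell in ATF4, near the 33.8% of all genes called. Rheb, the activator of mTOR, was among those that rose (0.65 ± 0.12, edgeR adjusted p = 5.4e-04). In DDIT3 against GFP edgeR called 0 of the 40, with 2 at an unadjusted p below 0.05 (9.71% of all genes), and DESeq2 called 0.

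The next list holds enzymes and factors that keep or erase DNA methylation. Of 29 listed, 25 were tested, and in ATF4 against GFP 2 rose, 3 fell and 20 did not pass edgeR's test, with a median log2 fold change of -0.10 (4 rose and 2 fell with scaling by total counts), where 32.2% of all genes were called. Tet3, which oxidises methylcytosine, rose to 57.7 ± 11.5 CPM in ATF4, against 26.9 ± 4.28 CPM in GFP (1.10 ± 0.14, edgeR adjusted p = 1.0e-05). Its relative Tet1 fell to 10.8 ± 4.52 CPM in ATF4, against 21.1 ± 2.63 CPM in GFP (-0.96 ± 0.25, edgeR adjusted p = 0.00695). The methyltransferase gene Dnmt3a fell to 85.3 ± 5.94 CPM in ATF4, against 131 ± 30.7 CPM in GFP (-0.62 ± 0.14, edgeR adjusted p = 0.00293), and Hells, a chromatin remodeller, rose to 1.42 ± 0.448 CPM in ATF4, against 0.557 ± 0.101 CPM in GFP (1.32 ± 0.47, edgeR adjusted p = 0.0384). In ATF4 against DDIT3, where 33.8% of all genes were called, 1 of the 25 rose and 3 fell (2 and 1 with scaling by total counts). Trim28, a corepressor that protects imprints in the mouse embryo, fell to 52.6 ± 3.83 CPM in ATF4, against 66.4 ± 5.04 CPM in DDIT3 (-0.34 ± 0.09, edgeR adjusted p = 0.00799). In DDIT3 against GFP edgeR called 0 of the 25, with 1 at an unadjusted p below 0.05 (9.71% of all genes), and DESeq2 called 0. Methylation of DNA was not measured.

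The authors' deposited table for ATF4 against GFP gave the same side of the threshold for each member tested here. Its log2 fold changes were 1.18 ± 0.16 for Grb10 (SE, adjusted p = 5.5e-12), 1.07 ± 0.21 for Plagl1 (adjusted p = 8.6e-06) and 0.57 ± 0.20 for Igf2 (adjusted p = 0.0211). For Meg3, the authors' deposited table gave 1.22 ± 0.56 (adjusted p = 0.0903).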

How the data were processed

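Libraries were made from polyA RNA by SMART-Seq v4 cDNA synthesis and the Nextera XT kit, per the labels' protocols. STAR, featureCounts, DESeq2, DESeq and the build mm10 are named in the submitters' processing notes, whose versions are not given in the sources used here. For 15 libraries the authors deposited whole-number counts per gene and a gene length column, read as bases. Their deposited comparison tables hold, per the file headers, a mean signal, log2 fold changes with standard errors, a test score and p-values, used only where named.

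Counts were tested with edgeR 4.0.16 (R 4.3.3; TMM, filterByExpr, robust quasi-likelihood, all 15 libraries in 1 fit, design by group alone, residual degrees of freedom 12, Benjamini-Hochberg over 11814 genes, threshold 0.05). CPM use TMM factors, and errors are SD over 5 libraries or SE of a fold change. DESeq2 1.42.0 was an alternative. The fit was tested on simulated data with 200 changed genes. Groups and replicate numbers came from titles. Whether each library is a separate animal is not stated, and p-values then reflect only the variation among these samples. Within a group, no library was a copy of another (chi-square per degree of freedom 8.60 to 50.4 over 30 pairs).

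Same-numbered libraries deviated together in DDIT3 and GFP (correlations 0.205 to 0.511) and in ATF4 and DDIT3 (0.135 to 0.497), all above 0.1, but in ATF4 and GFP in 4 of 5 (0.078 to 0.386). Totals set the depth, and floors are 3 counts over a group. Coordinates are from GENCODE vM21 (GRCm38), and sequences from RefSeq (GRCm38.p6), which held 6 of the 8 members. Beside the members, the 4 called genes with the lowest p of each list and comparison and the 3 genes most like each tested member in deviations of log2 CPM (prior count 2) are named. Igf2r stands in 2 lists, and Dcn is both on the list of imprinted genes and a fibroblast marker. The members and lists were chosen with earlier results of these data known.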

Additional observations from a re-analysis of the deposited data

Results flagged for a closer look

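H19 in ATF4 replicate 4 stood at 0.7096 CPM, on 5 counts, where the other 4 ATF4 libraries lay between 1.21 and 1.47 CPM. Its gap to the nearest library, 0.722 of the range of the group on the log2 scale, exceeded Dixon's 95% critical value of 0.71 for 5 samples. It was the 1 such case among 18 sets of 5 libraries (6 members in 3 groups), and chance gives such a gap in about 1 of 20.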

How the results depend on the processing

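Over 24 alternatives each, Grb10 and Plagl1 kept their direction and stayed past the threshold in ATF4 against GFP (log2 fold change 1.13 to 1.36 and 0.95 to 1.24) and in ATF4 against DDIT3 (1.21 to 1.41 and 0.98 to 1.27). Igf2 ran from 0.44 to 0.73 against GFP, with the 4 lost calls named above, and from 0.84 to 1.03 against DDIT3 with none lost. Members called against GFP numbered 2 to 3, and against DDIT3 3 to 5, the fifth being Meg3 in DESeq2. Genes called over the whole table ran from 3186 to 5097 in ATF4 against GFP and from 3380 to 5228 in ATF4 against DDIT3. The highest numbers came with the replicate number as a block, so that the shares of 32.2% and 33.8% hold for the main fit only. In DDIT3 against GFP no alternative called a member, while genes called over the whole table numbered 102, 65 with a stricter filter, 223 by DESeq2, 322 with the replicate number as a block, and 55 to 146 without single libraries (55, 62 and 65 without DDIT3 replicates 1, 2 and 3, and 65, 63 and 61 without GFP replicates 1, 3 and 4). Uncalled values there ran over the alternatives from -0.18 to 0.01 for Grb10, -0.19 to 0.11 for Plagl1, -0.20 to 0.18 for H19, -0.60 to -0.24 for Cdkn1c, -0.47 to -0.21 for Igf2 and -0.39 to -0.08 for Peg3. The block changed no call of a member. Scaling by total counts raised the median of all genes by 0.15 (log2) in ATF4 against GFP and by 0.11 against DDIT3. The higher share of calls was then 72.2% in place of 51.4%, and 67.8% in place of 52.7%. The calls of members were the same under each scaling. H19 gave no value under 4 alternatives, where it missed the filter on low counts. Sex as a term and leaving out ATF4 replicate 2 and DDIT3 replicate 2 changed no member's call. Counts of 59 or fewer per group limit H19, Meg3 and Dlk1.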
